A study of Mus musculus with 282 samples.

Results

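Adar, Adarb1 and Adarb2 are the 3 genes of the mouse family of adenosine deaminases that act on RNA, and their expression was followed in the hypothalamus of inbred mice. The members were all rows of the deposited expression table whose gene name in the merged assembly was Adar, Adarb1 or Adarb2. The rule gave 3 of 14079 gene rows and 18 of 51024 transcript rows, with 9 of 32537 rows for start sites of transcription and 6 of 18687 for coding sequences. All of these rows had passed the filter on low values that the authors applied before deposit, and isoforms that had not passed it were not analysed here.

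The hypothalamus of 282 males, all fed a diet high in fat and sugar, had been profiled with 1 unstranded mRNA library per mouse. The mice came from the Hybrid Mouse Diversity Panel, a collection of classical inbred strains and of recombinant inbred strains, which are inbred lines derived from a cross of 2 inbred parents. The labels gave 1 strain for all but 1 mouse, and the 99 strains were made up of 25 classical inbred strains (71 mice), 43 BXD strains (126 mice), 18 AXB/BXA strains (47 mice), 7 CXB strains (21 mice) and 6 BXH strains (16 mice). All 4 recombinant sets have C57BL/6J as a parent, and the other parent is DBA/2J for BXD, A/J for AXB/BXA, BALB/cJ for CXB and C3H/HeJ for BXH. Of the strains, 85 had 3 mice, 12 had 2 and 2 had 1. Every mouse was male and was fed this diet, and the labels gave no age. Mouse OB-627, whose labels name 2 strains, entered only the values over all mice. In tests among strains the p-values measure the spread between mice of 1 strain, and in tests between strain sets and in correlations of strain means they rest on the spread between strains.

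ADAR enzymes convert adenosine to inosine in double-stranded RNA, and inosine is read as guanosine by the ribosome and by reverse transcriptase. ADAR1, encoded by Adar, edits mostly non-coding repeats and keeps cellular double-stranded RNA from being sensed as viral; it is made as a shorter, constitutive protein (p110) and as a longer protein (p150) from an interferon-inducible promoter. ADAR2, encoded by Adarb1, recodes neuronal receptors such as the AMPA receptor subunit Gria2. It also edits its own precursor RNA, which creates an additional 3′ splice site that lengthens an exon by 47 bases. ADAR3, encoded by Adarb2, is found mainly in brain, binds double-stranded RNA and is not known to deaminate it.

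The isoforms differed in start sites, exons and 3′ ends, of which 3 short blocks of exon sequence and 1 promoter are shown. The blocks were picked because they separate some isoforms of Adarb1 and Adarb2 whose shares are given below. The promoter is that of the interferon-inducible start site of Adar. The blocks were read from GENCODE M21 transcripts on GRCm38, the build of the files (mm10). Each is printed 5′ to 3′ in the sense of the gene, with the block in capitals between 15 bases of neighbouring mRNA on either side.
Adarb1, 47-nt block at the alternative 3′ splice site (chr10:77322584-77322630, minus strand): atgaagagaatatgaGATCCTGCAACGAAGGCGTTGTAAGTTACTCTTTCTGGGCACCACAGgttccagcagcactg
Adarb1, 30-nt block at an alternative 5′ splice site (chr10:77312348-77312377, minus strand): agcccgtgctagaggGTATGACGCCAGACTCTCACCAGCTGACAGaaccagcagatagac
Adarb2, 5-nt block at an alternative 5′ splice site (chr13:8752747-8752751, plus strand): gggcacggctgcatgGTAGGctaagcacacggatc
The 30-nt and the 5-nt blocks both begin with GT, the letters at which most introns start, so in each case the intron of the shorter isoform starts with GT at the first base of the block. GENCODE M21 labels both full-length transcripts with the 47-nt block as targets of nonsense-mediated decay.

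For Adar, RefSeq gave 3 promoter windows of 300 bases (250 before and 50 after a start, GRCm38.p6), and for Adarb1 and Adarb2 it gave 1 each. A 10-base form of the interferon-stimulated response element, GAAANNGAAA, was searched on both strands first and was found in none of these 5 windows and in 3.44% of all 32851 windows. The shorter GAAANNGAA was then chosen after the site had been seen. It was found in 1 of the 3 Adar windows, in neither of the other genes' windows and in 8.56% of all windows. The window with a match held 2 of them, at chr3:89730469-89730477 and, nearest to the annotated start, at chr3:89730751-89730759, just inside the start site TSS56070 at position 89730748. The latter is shown in capitals. A match is a stretch of letters and not a measured binding site.
Adar, chr3:89730741-89730767, plus strand: tcaaggaaacGAAAGTGAActctgggg

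Before the results, 18 libraries have to be set apart, on the far side of the widest gap in the first principal component of transcripts from chromosomes without a member. This component held 10.6% of the variance, and they scored 0.215 to 0.229, against -0.0381 to 0.0246 for the others. They comprised every mouse of BXD62, BXD70, BXD75, BXD85, BXD-9/TyJ and BXHA1 and 1 of the 3 mice of BXD87. In them, isoforms absent from GENCODE took 9.79% to 11.2% of all transcript FPKM, against 20.3% to 24.1% elsewhere, and 50.3% to 55.2% of such isoforms were listed at 0, against 5.94% to 38.1%. Since these libraries fill whole strains, they bear directly on tests among strains. The main tests of the members are given with them and without them (93 strains), and some other tests in 1 setting only. Mouse OB-547 of BXD-12/TyJ also stood apart, with FPKM over genes summing to 792801 against 322047 to 463433 in the other mice. As a check of the tissue label, the hypothalamic genes Hcrt, Pmch, Avp, Pomc and Nkx2-1 were above 0 in all 282 mice; Oxt, Agrp and Sim1 had no row under their own name alone and were not analysed here. The summed markers of neighbouring tissue varied widely: the 5 thalamus markers (Tcf7l2, Prkcd, Tnnt1, Lef1 and Ramp3, none at 0 in any mouse) from 17.4 to 381 FPKM, 6 of 7 anterior pituitary markers from 0.589 to 16460 FPKM, and 5 of 6 choroid plexus markers from 7.25 to 2101 FPKM. In bulk tissue, fewer cells of a type and less RNA per cell cannot be told apart.

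Adarb1 had the highest level of the 3 genes, followed by Adar and, far lower, Adarb2. The values are FPKM, which are scaled to transcript length and to the number of mapped fragments, so they can be compared between genes. Adarb1 ranged from 30.6 to 114 FPKM over the 282 mice with a median of 75.4 (74.6 ± 16.8, SD). Adar ranged from 38.4 to 61.7 FPKM with a median of 48.2 (49.0 ± 4.63, SD). Adarb2 ranged from 5.08 to 16.8 FPKM with a median of 9.54 (9.81 ± 2.201, SD). The highest Adarb2 value lay below the lowest Adarb1 value and the lowest Adar value, whereas Adar and Adarb1 overlapped. Adarb1 and Adarb2 varied most between mice, with coefficients of variation of 22.5% and 22.4%, against 9.45% for Adar. In the 18 libraries set apart, the mean levels were 52.7, 82.8 and 8.41 FPKM for Adar, Adarb1 and Adarb2, against 48.8, 74.1 and 9.90 FPKM in the others.

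**Figure D1:**
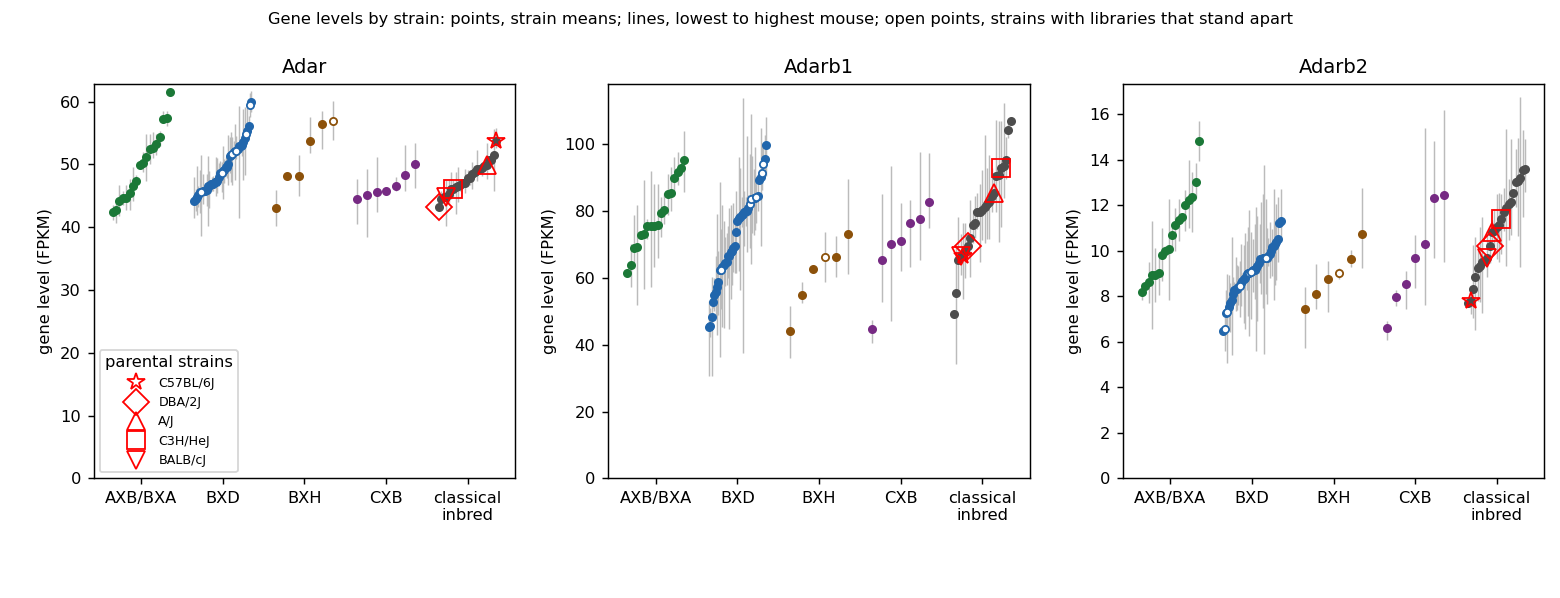
Gene levels in FPKM (vertical axes, from 0) of Adar, Adarb1 and Adarb2 in 99 strains, grouped by strain set (horizontal axes) and ordered by level within each set; points are strain means, lines run from the lowest to the highest mouse, red symbols mark the 5 parental strains and open points mark strains with libraries set apart. C57BL/6J is the highest classical strain for Adar at 53.7 FPKM, and its mean for Adarb2 is 7.79 FPKM.

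All 3 genes differed among strains. For Adar, strain means ran from 42.4 FPKM in AXB-8/PgnJ to 61.5 FPKM in AXB-12/PgnJ, a ratio of 1.45, with AXB-12/PgnJ represented by 1 mouse and BXD-19/TyJ next at 59.9 ± 1.68 FPKM (SD, n = 3). For Adarb1, they ran from 44.0 ± 7.74 FPKM (SD, n = 3) in BXHB2 to 107 FPKM in the single mouse of I/LnJ, a ratio of 2.43, followed by NZB/BlNJ at 104 ± 2.25 FPKM (SD, n = 3). For Adarb2, they ran from 6.46 ± 0.0776 FPKM (SD, n = 3) in BXD-38/TyJ to 14.8 ± 1.24 FPKM (SD, n = 2) in BXA-12/PgnJ, a ratio of 2.29. The order of strains was continuous. None of the 98 gaps between neighbouring strain means exceeded the SD of mice within strains, which was 3.00 FPKM for Adar, 12.7 FPKM for Adarb1 and 1.72 FPKM for Adarb2, while the largest gaps were 2.06, 4.34 and 1.20 FPKM.

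The strain share, the intraclass correlation of log2(FPKM + 1), is the part of the variance that lies between strains. It was 0.56 for Adar (adjusted p = 4.79e-18), 0.44 for Adarb1 (adjusted p = 1.3e-11) and 0.38 for Adarb2 (adjusted p = 5.11e-09) by limma's moderated F test over 99 strains. Strain differences were common in this tissue: 75.5% of all 14079 genes were called, and the median strain share over all genes was 0.22. Ranked among all genes, the strain shares of the members stood at the 91.3rd percentile (Adar), the 82.9th (Adarb1) and the 76.6th (Adarb2). Without the 18 libraries, 71.1% of genes were called and the members' shares were 0.55, 0.43 and 0.39 (adjusted p = 4.69e-16, 9.04e-11 and 1.01e-08). With the summed thalamus markers as a covariate they were 0.55, 0.39 and 0.46 (adjusted p = 3.20e-17, 3.12e-09 and 2.16e-12, 73.2% called).

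Tests within each strain set were passed by Adar in 4 sets and by Adarb1 and Adarb2 in 3 sets each. For Adar, AXB/BXA strain means spanned 42.4 to 61.5 FPKM and BXH means 43.1 to 56.9 FPKM, whereas CXB means stayed within 44.5 to 50.1 FPKM. Among the strains of 1 set, limma's moderated F test gave adjusted p = 2.06e-11 for Adar in AXB/BXA (22.5% of genes called), 3.3e-12 in BXD (64.6%), 1.13e-05 in BXH (18.5%), 0.0204 in the classical strains (47.7%) and 0.401 in CXB (18.1%). Adarb1 varied among BXD strains, from 45.2 to 99.9 FPKM (adjusted p = 2.7e-09), among classical strains, from 49.2 to 107 FPKM (0.000676), and among CXB strains, from 44.7 to 82.8 FPKM (0.016). It did not pass the threshold in AXB/BXA (61.4 to 95.3 FPKM, 0.469) or BXH (44.0 to 73.0 FPKM, 0.0774). Adarb2 passed in the classical strains (7.71 to 13.6 FPKM, 0.000503), in CXB (6.61 to 12.4 FPKM, 0.00217) and in AXB/BXA (8.17 to 14.8 FPKM, 0.0119), but not in BXD (6.46 to 11.3 FPKM, 0.0652) or BXH (7.45 to 10.7 FPKM, 0.355). Whether a gene's variation differed between sets was not tested, and the sets differ in their number of strains. None of these calls changed without the 18 libraries, where 22.3% of genes were called in AXB/BXA, 56.4% in BXD, 12.4% in BXH, 47.5% in the classical strains and 17.5% in CXB.

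Between the 5 sets, with strains as replicates, Adarb2 and Adarb1 differed and Adar did not pass. Mean Adarb2 levels were 10.9 ± 1.80 FPKM (SD) over classical strains and 10.6 ± 1.82 over AXB/BXA strains, above 9.70 ± 2.18 in CXB, 9.04 ± 1.10 in BXD and 8.95 ± 1.15 in BXH (limma's moderated F test, adjusted p = 0.000457, 26.3% of genes called). Adarb1 was highest in the classical strains at 79.8 ± 13.95 FPKM and lowest in BXH at 61.2 ± 10.3 FPKM (adjusted p = 0.0393). For Adar the set means lay between 46.6 and 51.1 FPKM (adjusted p = 0.201). The adjusted p without the 18 libraries was 0.00178, 0.0223 and 0.317 for Adarb2, Adarb1 and Adar (26.4% called). The strain values of all sets overlapped for each gene. Median summed thalamus markers per mouse ranged from 163 FPKM in BXH to 240 FPKM in AXB/BXA, and their part in these differences was not tested.

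Among the parental strains, C57BL/6J had the highest mean level of Adar. The 3 C57BL/6J mice had 52.6, 55.8 and 52.6 FPKM of Adar. The 3 DBA/2J mice had 44.3, 42.8 and 42.8 FPKM, the BALB/cJ mice 46.9, 40.3 and 47.4, the C3H/HeJ mice 47.5, 46.1 and 44.9, and the A/J mice 53.4, 48.6 and 47.7. All mice of DBA/2J, BALB/cJ and C3H/HeJ lay below every C57BL/6J mouse, and 1 of 3 A/J mice overlapped with them. Relative to C57BL/6J, Adar was lower by 0.30 ± 0.07 (SE) on the log2(FPKM + 1) scale in DBA/2J (limma's moderated test, adjusted p = 0.00136, 6.85% of genes called), by 0.26 ± 0.07 in BALB/cJ (0.0116, 6.81%) and by 0.21 ± 0.07 in C3H/HeJ (0.0474, 7.59%). A/J was lower by 0.10 ± 0.07 and did not pass (0.459, 7.96%). The 4 contrasts share the C57BL/6J mice. None of the 18 libraries is parental, and without them the same 3 contrasts passed (0.00101, 0.00955 and 0.0412, with 6.83%, 6.78% and 7.59% of genes called) and A/J did not (0.448, 7.88%). The C3H/HeJ call was lost when any of the 3 replicates was left out (adjusted p = 0.135 to 0.266) and when the spread came from these 2 strains only (0.107). The DBA/2J call was lost without replicate 2 (0.0584), and the BALB/cJ call without replicate 2 (0.48) or with the spread of 2 strains (0.147).

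Adarb1 and Adarb2 passed in none of the 4 contrasts. C57BL/6J mice had 53.7, 76.4 and 69.7 FPKM of Adarb1 and 7.21, 8.07 and 8.10 FPKM of Adarb2. The largest differences were against C3H/HeJ, whose mice had 107, 75.2 and 96.5 FPKM of Adarb1 and 12.5, 9.84 and 11.8 FPKM of Adarb2. On the log2(FPKM + 1) scale C3H/HeJ was higher by 0.47 ± 0.21 (SE) for Adarb1 (limma's adjusted p = 0.182) and by 0.49 ± 0.19 for Adarb2 (0.0959). The Adarb2 mice of these 2 strains did not overlap, and with the spread of the 2 strains alone Adarb2 passed against C3H/HeJ (0.0438) and A/J (0.0265).

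Recombinant strain means lay outside those of both parents in some cases and mostly between them in others. In AXB/BXA, 9 of 18 strains had a lower mean of Adar than both parents (49.9 FPKM in A/J and 53.7 in C57BL/6J) and 4 a higher one. In BXD, 6 of 43 strains were above both parents, 0 below and 37 between, with DBA/2J at 43.3 FPKM. In CXB, 6 of 7 strains lay between the parents for Adar. For Adarb2, 32 of 43 BXD strains lay between the parents. For Adarb1, 15 of 43 BXD strains lay below both parents (66.6 and 69.6 FPKM) and 23 above both. These parents lay closer together than the within-strain SD of 12.7 FPKM. These are counts of means with the errors given above, and no test was made of them.

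The 3 Adar isoforms of 15 exons differed between the 18 libraries and the rest by more than the level of the gene did. The short isoforms TCONS_00217799 and TCONS_00217810 averaged 1.48 and 2.90 FPKM in the 18 libraries and 1.48 and 2.85 FPKM in the others. The locus spans chr3:89715022-89757281 on the plus strand in mm10. The main deposited isoform, TCONS_00217797, matches an annotated 15-exon transcript that starts at 89715022 and encodes the p110 form by its GENCODE start codon. The other 15-exon isoforms, which are absent from GENCODE, TCONS_00217800 and TCONS_00217808, start at 89730544 and 89730748, the latter at the interferon-inducible first exon, and share a last exon extended to 89757281. In 6 of their 13 introns after the first, the splice sites were shifted by 1 nt from those of TCONS_00217797.

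In the other libraries TCONS_00217797 made up 67.7% ± 3.45 (SD) of the deposited Adar transcripts, TCONS_00217800 9.18% ± 1.42 and TCONS_00217808 12.9% ± 2.35. In the 18 libraries the same shares were 89.0% ± 4.598, 0.311% ± 0.352 and 0.215% ± 0.324. As levels, TCONS_00217808 ran from 2.89 to 8.56 FPKM with a median of 6.17 in the others and from 0 to 0.69 FPKM in the 18, and TCONS_00217800 from 0.411 to 6.36 FPKM against 0 to 0.463 FPKM. TCONS_00217797 ran from 4.80 to 44.0 FPKM in the others and from 33.1 to 52.0 FPKM in the 18. The ranges of TCONS_00217808 did not overlap, those of TCONS_00217800 met at their edges, and those of TCONS_00217797 overlapped.

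**Figure D2:**
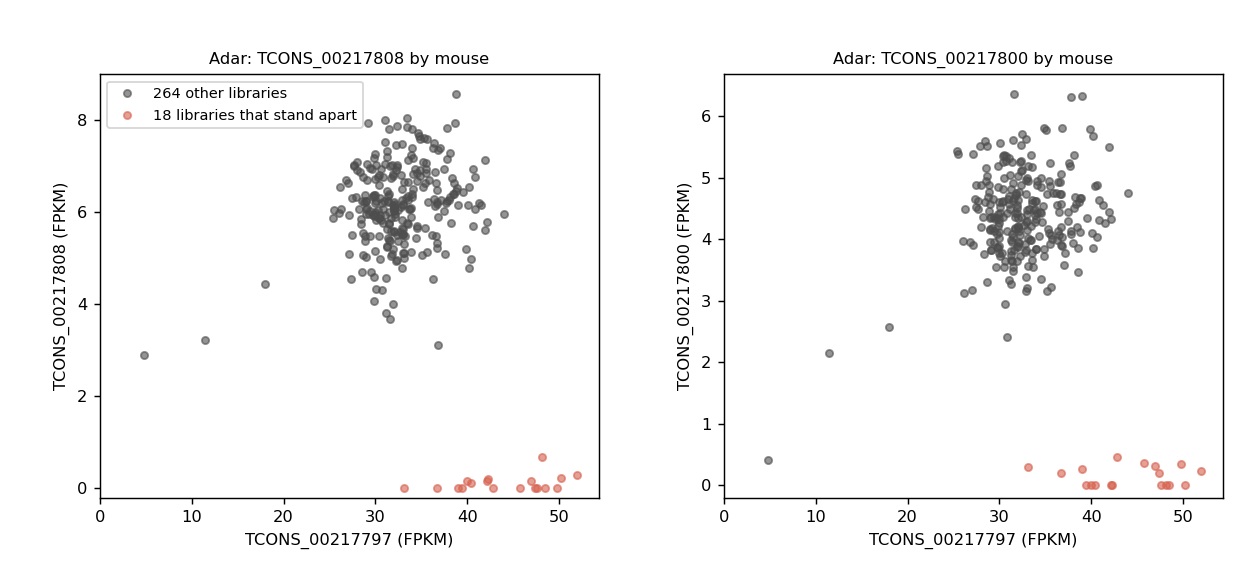
Levels by mouse, in FPKM, of the annotated Adar isoform TCONS_00217797 (horizontal axes) against the unannotated isoforms TCONS_00217808 (left) and TCONS_00217800 (right), 1 point per mouse. The 18 libraries set apart lie along the bottom, at most 0.69 FPKM of TCONS_00217808, and 3 other mice lie to the left with under 20 FPKM of TCONS_00217797.

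Strain tests of these isoforms turned on those libraries. With all mice, the strain share was 0.86 for TCONS_00217808 (adjusted p = 2.93e-58) and 0.80 for TCONS_00217800 (1.81e-45), where 46.9% of all transcripts were called. Without the 18 libraries the shares were 0.10 (0.192) and -0.04 (0.816), and 26.8% of transcripts were called. TCONS_00217797 fell from 0.31 (5.25e-06) to 0.16 (0.029), and its call with all mice was lost without replicate 1 (0.0529). With all mice but OB-547, described below, its strain share was 0.58, and that of its start site TSS56067 rose likewise from 0.31 to 0.59. The 3 short annotated Adar isoforms, TCONS_00217799, TCONS_00217810 and TCONS_00217811, did not pass in either setting. Without the 18 libraries but with OB-547 kept, no Adar isoform had a strain share as high as the 0.55 of the gene. No setting left out both the 18 libraries and OB-547.

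The p110 start site TSS56067 had 33.4 ± 5.20 FPKM (SD, 282 mice), 67.9% of the gene's level. The interferon-inducible start site TSS56070 had 6.53 ± 2.51 FPKM, 13.5% of that level. The only deposited transcript of TSS56070 was TCONS_00217808, which did not hold all of its level. In the 18 libraries this transcript averaged 0.113 FPKM, against 3.03 FPKM for the start site. In no mouse did it exceed 8.56 FPKM, so most of the highest TSS56070 levels given below lay in isoforms not analysed here. Of the 9706 nt of TCONS_00217808, 3823 nt overlap the annotated last exon of the antisense gene Chrnb2. How much of the TSS56070 level came from Chrnb2, or from RNA that encodes p150, was not tested. In the 18 libraries TSS56067 averaged 44.2 FPKM, against 32.7 FPKM in the others, and TSS56070 averaged 3.03 FPKM, against 6.77 FPKM. By strain, TSS56069 and TSS56070 passed with all mice (adjusted p = 7.17e-46 and 1.23e-06, 50.4% of start sites called) and not without the 18 libraries (0.776 and 0.439, 38.8% called). TSS56067 passed in both (3.13e-06 and 0.019). As shares of the start sites of the gene, TSS56067 and TSS56069 passed with all mice (1.65e-09 and 3.82e-28, 34.5% of start site shares called) and neither did without the 18 libraries (0.13 and 0.182, 20.3% called). The share of TSS56070 did not pass with all mice (strain share 0.04, 0.394) or without the 18 libraries (-0.07, 0.908), but passed without mouse OB-547 (0.0254). In 2 mice TSS56070 exceeded TSS56067: OB-547 (BXD-12/TyJ) had 36.3 FPKM from TSS56070 and 4.80 FPKM from TSS56067, and OB-422 (CXB-3/ByJ) had 23.4 and 11.4 FPKM. The next highest TSS56070 value was that of OB-1106 (BXD60), with 14.6 FPKM against 18.03 FPKM from TSS56067. In OB-547 the level of the gene was 41.5 FPKM, within the range of the other mice.

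No relation of TSS56070 to interferon-stimulated genes was detected over strains. The interferon score was the mean of standardized levels of 8 measured genes of a list of 20, among them Ifit3, Isg15, Oasl2 and Bst2. Its correlation with the TSS56070 level over 99 strain means was r = 0.071 (permutation p = 0.464) with Spearman's rho = 0.00188 (0.985), and r = 0.108 once the 2 most distant strains were left out. With the 18 libraries left out r was 0.156 (permutation p = 0.131). The level of the Adar gene had r = -0.0732 with the score (permutation p = 0.475). These 2 relations belong to a family of 17 computed over strain means beside the 3 pairs of members, and their adjusted p was 0.538 each. Within strains, the deviations of mice in the TSS56070 level gave r = 0.175 (adjusted permutation p = 0.0114) but rho = -0.0819 (0.207), and r = 0.0692 without the 2 most distant mice. Over strain means, the share of TSS56070 in place of its level gave r = 0.194 (permutation p = 0.0598), and 0.0669 without the 2 most distant strains.

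One limit applies to Adar alone. Its exons lie within an assembled transcript of the antisense neighbour Chrnb2, a nicotinic receptor subunit gene, and the extended last exon overlaps the annotated Chrnb2 last exon by 3823 nt. The libraries were unstranded, so reads from the overlap cannot be assigned to either strand. Over strain means Adar and the Chrnb2 locus (18.8 ± 2.85 FPKM, SD), which also holds 4632404H12Rik, had r = 0.0148 (permutation p = 0.885) and rho = -0.00899. Without the 18 libraries r with this locus was -0.109 for the Adar gene (adjusted permutation p = 0.377). It was 0.228 for TCONS_00217800 (0.0531), or 0.0592 without 2 strains, and 0.0803 for TCONS_00217808 (0.47). These correlations cannot show how many reads of the overlap came from Chrnb2.

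Adarb1 lies on chr10:77290726-77418270 on the minus strand, and its 9 deposited transcripts summed to 98.6% ± 1.83 (SD) of the level of the gene. The main isoforms were TCONS_00038872 with 30.7 ± 8.98 FPKM (SD, 282 mice), TCONS_00038871 with 22.8 ± 6.45 FPKM and TCONS_00038874 with 7.73 ± 6.83 FPKM. They made up 41.3%, 31.6% and 9.95% of the deposited Adarb1 transcripts. TCONS_00038872 and TCONS_00038874 contain the 47-nt block and TCONS_00038871 does not, and TCONS_00038871 and TCONS_00038874 contain the 30-nt block. Without the 18 libraries, TCONS_00038872 (strain share 0.32, adjusted p = 1.16e-05), TCONS_00038883 (0.21, 0.00407) and TCONS_00038876 (0.15, 0.0421) passed among the 9. The last of these did not pass with all mice (0.0628). With all mice, the call of TCONS_00038872 was lost without replicate 2 (0.0521) and that of TCONS_00038883 without replicate 3 (0.29), while TCONS_00038871 did not pass (0.0645) but passed without mouse OB-547 (0.0249). As shares of the gene, none of the 9 passed without the 18 libraries, where 17.8% of all transcript shares did.

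Nearly all of Adarb1, 97.7% ± 3.58 (SD), came from the start site TSS8816, which passed with all mice (strain share 0.40, adjusted p = 1.68e-09) and without the 18 libraries (0.39, 1.93e-08), whereas TSS8815, listed at 0 in 81 mice, did not (0.133). Of the coding sequences, 52.7% of all were called with all mice and 37.0% without the 18 libraries. P4053, shared by TCONS_00038872 and TCONS_00038874, passed in both settings (3.51e-05 and 0.000147), P4055 of TCONS_00038871 with all mice only (0.0494 and 0.123), and P4054 in neither (0.824 and 0.902).

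The splicing of Adarb1 was measured by the percent spliced in (PSI). PSI is the level of transcripts that contain a block over that of transcripts that contain or skip it between the same neighbouring splice sites. TCONS_00038867, which skips the 47-nt block after a different exon, was therefore not part of its PSI. PSI of the 47-nt block ranged from 18.8% to 81.5% over 282 mice with a median of 62.2% (61.5% ± 8.36, SD), and the lowest mouse was OB-547. PSI of the 30-nt block was lower, from 15.9% to 62.3% with a median of 48.9% (48.9% ± 5.63, SD). Strain means of the 47-nt block ran from 49.5% in BXD-6/TyJ to 72.5% in C3H/HeJ, with a within-strain SD of 8.15 percentage points. Neither event passed among strains: limma's adjusted p was 0.354 for the 47-nt block and 0.614 for the 30-nt block (29.8% of splicing events called), and 0.416 and 0.591 without the 18 libraries (15.2% called). The remaining event, a 73-nt exon contained only in TCONS_00038867, had adjusted p = 0.522.

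Although PSI of the 47-nt block did not pass among strains, it followed the level of Adarb1. This relation was computed after the data had been seen. Over 99 strain means r was 0.621 and rho 0.612 (permutation p = 1e-05 each, the smallest that 100000 resamples can give, adjusted over 17 relations 3.4e-05), and r was 0.582 once the 2 most distant strains were left out. It was 0.626 without the 18 libraries and 0.512 over deviations of mice from their strain mean. Within sets r was 0.547 in AXB/BXA, 0.597 in BXD, 0.796 in BXH, 0.558 in CXB and 0.676 in the classical strains, with permutation p = 0.0192, 2e-05, 0.0333 (exact), 0.179 (exact) and 0.00019, but in BXH and CXB r without 2 strains was 0.259 and -0.0137. Both measures come from the same transcript estimates. PSI of the 47-nt block also had r = 0.373 with Adarb2 (adjusted p = 0.000453, permutation test) and r = -0.11 with Adar (0.366). PSI of the 30-nt block went the other way with Adarb1 (r = -0.255, adjusted p = 0.0211, permutation test), but rho was -0.191 (0.101) and r without 2 strains was -0.145.

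Thalamus markers moved with Adarb1 and with its splicing. Over strain means the summed level of the 5 markers had r = 0.877 with Adarb1, 0.576 with Adarb2, 0.541 with PSI of the 47-nt block and -0.177 with Adar (adjusted permutation p = 3.4e-05 for the first 3 and 0.125 for Adar; rho = 0.878, 0.565, 0.554 and -0.0995). Over deviations of mice within strains, r was 0.855 with Adarb1, 0.673 with Adarb2 and 0.385 with PSI. Neuron markers, all 4 measured, had r = 0.709 with Adarb1 and 0.576 with Adarb2, the excitatory marker Slc17a6 had r = 0.668 with Adarb1, and the 3 inhibitory markers had -0.526. For the 5 hypothalamus markers measured, r with Adarb1 was -0.248. In residuals after regression on the thalamus markers, Adarb1 and PSI kept r = 0.362 over strain means (adjusted permutation p = 0.000607). Whether tissue of the thalamus in the samples had a part in these relations was not tested further.

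Among the 3 genes, Adarb1 and Adarb2 rose and fell together over strains. Over 99 strain means of log2(FPKM + 1) r was 0.642 and rho 0.606 (permutation p adjusted over 3 pairs = 3e-05, the smallest it can be), and r was 0.622 once the 2 strains most distant from the Adarb1 median were left out. It was 0.712 without the 18 libraries and 0.700 over deviations of mice within strains. Within sets r was 0.709 in AXB/BXA, 0.515 in BXD, 0.851 in BXH, 0.775 in CXB and 0.694 in the classical strains. The adjusted p was 0.00375, 0.00159, 0.0875 (exact), 0.0732 (exact) and 0.00018 by permutation, and r in CXB was 0.196 without 2 strains. Ranked among 11492 genes, Adarb1 was the 10th most like Adarb2, and Adarb2 was the 354th most like Adarb1. Beside it stands the relation of both to the thalamus markers given above: in residuals after regression on these markers r was 0.347 over strain means (adjusted permutation p = 0.000956) and 0.325 within strains.

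Correlations of Adar with the other 2 genes were below 0 over strain means. With Adarb2, r was -0.234 and rho -0.246 (adjusted permutation p = 0.03 and 0.021), -0.252 without 2 strains and -0.218 without the 18 libraries (0.0552). The call was also lost without replicate 2, where r was -0.105 (adjusted permutation p = 0.298). Given the thalamus markers it was -0.164 (0.104, unadjusted permutation p), and within the classical strains it was 0.0991. With Adarb1, r was -0.166 and rho -0.157 (adjusted permutation p = 0.0996 and 0.121). In BXD it was -0.394 (0.0125), in the classical strains 0.304 (0.21), and over deviations within strains 0.212. Given the thalamus markers, r of Adar and Adarb1 was -0.0239 over strain means (adjusted permutation p = 0.865) and 0.555 over deviations within strains (1.5e-05). The sign of the relation of Adar to Adarb1 thus depended on the set and on the level at which it was taken.

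**Figure D3:**
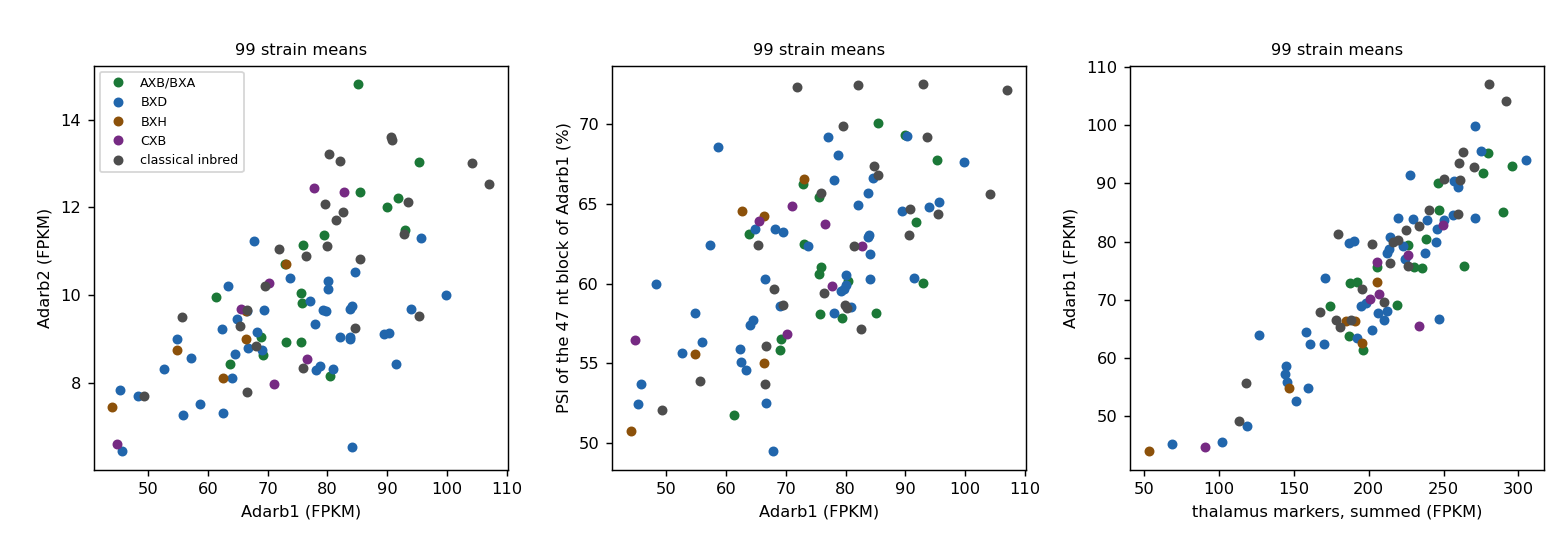
Strain means of 99 strains, coloured by strain set: Adarb2 against Adarb1 in FPKM (left), PSI of the Adarb1 47-nt block in percent against Adarb1 in FPKM (middle), and Adarb1 against the summed level of 5 thalamus markers in FPKM (right). Points rise from left to right in each panel and lie closest to a line in the right panel, where r on the log2 scale was 0.877.

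Without the 18 libraries, the highest strain share among the 18 transcripts was that of an Adarb2 isoform. The gene spans chr13:8202866-8768747 on the plus strand. Its 3 deposited transcripts share 1 start site and together gave only 4.27 ± 1.23 FPKM (SD), 44.4% ± 12.2 of the level of the gene, with the remainder in isoforms not analysed here. TCONS_00083608 contains the 5-nt block and ends at 8761530, TCONS_00083619 lacks the block and ends at 8758872, and TCONS_00083618 contains it and continues to a further last exon that ends at 8768747. Shares of these transcripts therefore combine the splice site with the 3′ end.

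TCONS_00083608 made up between 0.00121% and 100% of the deposited Adarb2 transcripts, with a median of 39.2% (49.9% ± 27.9, SD, 282 mice). Its 3 values in C57BL/6J were 0.122, 0.263 and 1.25 FPKM, against 1.48, 1.66 and 1.59 FPKM in DBA/2J. They were 4.33, 3.90 and 3.26 FPKM in A/J, 2.97, 2.93 and 2.60 FPKM in BALB/cJ and 2.53, 1.02 and 1.15 FPKM in C3H/HeJ. All A/J and BALB/cJ mice lay above all C57BL/6J and C3H/HeJ mice. TCONS_00083619 ran the other way, with 2.07, 2.11 and 1.44 FPKM in C57BL/6J and 0.191, 0.497 and 3.72e-06 FPKM in A/J. As strain means, the share of TCONS_00083608 was 14.9% ± 12.1 (SD, n = 3) in C57BL/6J, the lowest of 99 strains, 25.2% in C3H/HeJ, 42.1% in DBA/2J, 89.5% in BALB/cJ and 92.2% in A/J. No test was made of these parental values.

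Among all strains the share had a strain share of variance of 0.80 (adjusted p = 8.04e-45 by limma's moderated F test, 37.5% of transcript shares called), the same without the 18 libraries (0.80, 2.34e-41, 17.8% called). In that setting it stood at the 99.6th percentile of all transcript shares, whose median was 0.06. The level of TCONS_00083608 had a strain share of 0.77 (5.05e-37) and that of TCONS_00083619 of 0.63 (9.72e-22), both without the 18 libraries, whereas TCONS_00083618 had 0.16 (0.0328) and lost its call with all mice without replicate 2 or 3 (0.0609 and 0.0641). The start site TSS21629 had 0.18 (0.0102), a call lost with all mice without replicate 3 (0.195), and the coding sequences P9808 and P9810 had 0.63 and 0.49 (8.18e-22 and 6.26e-13). PSI of the 5-nt block had 0.61 (3.86e-20). The gene itself had 0.39.

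The strain means of the share fell on both sides of a gap of 14.4 percentage points between LG/J (68.3%) and BXD-32/TyJ (53.9%), wider than the within-strain SD of 12.5 points. This was the only one of 98 gaps that exceeded that SD. Above it were 28 strains, 17 of 25 classical, 9 of 18 AXB/BXA and 2 of 7 CXB, and none of the 43 BXD or 6 BXH strains. BXD means ran from 19.9% to 53.9% and BXH means from 27.0% to 41.1%, whereas AXB/BXA means lay at 24.8% to 39.4% or above 70.5%. AXB-18/PgnJ, AXB-19/PgnJ and AXB-20/PgnJ, all above the gap, are closely related lines. The gap was read from the values, and strains on its sides were not tested against each other. PSI of the 5-nt block had no such gap. The widest gap between its neighbouring strain means was 5.95 percentage points, below its within-strain SD of 14.9 points. The Adarb2 level had r = 0.684 with the share over strain means, as a description, since TCONS_00083608 is part of that level.

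**Figure D4:**
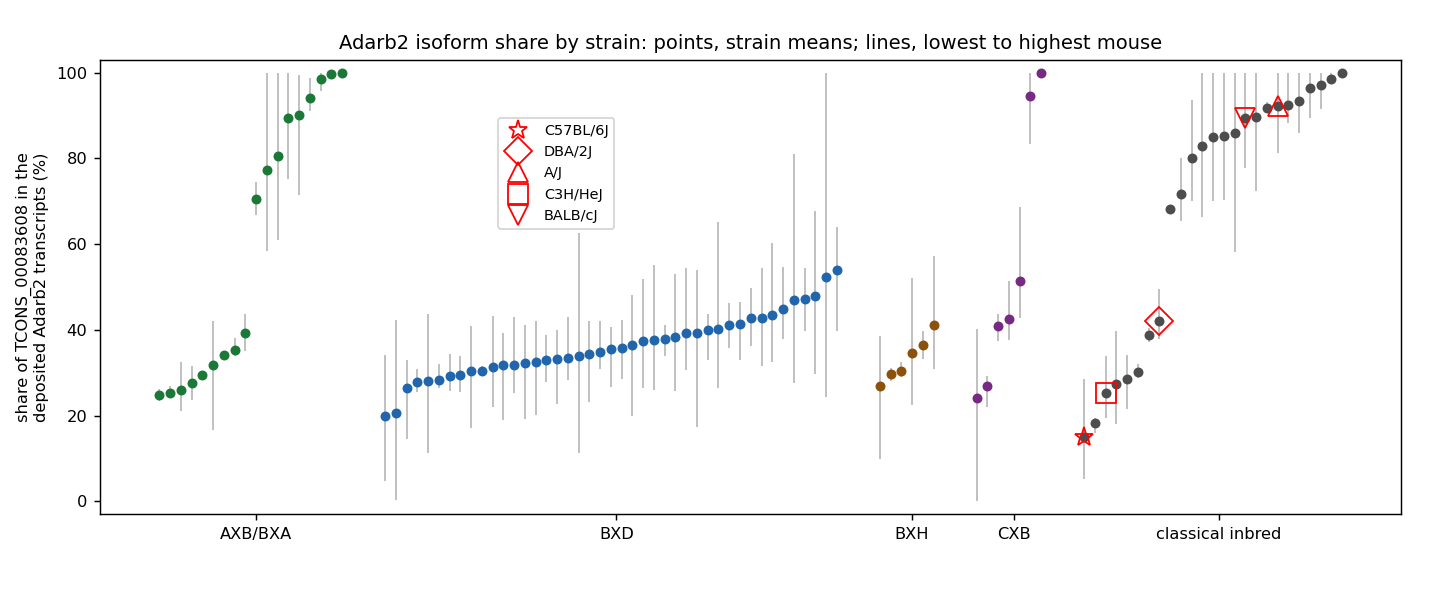
Share of TCONS_00083608 in the deposited Adarb2 transcripts (percent, vertical axis) in 99 strains, ordered within each strain set; points are strain means, lines run from the lowest to the highest mouse and red symbols mark the parental strains. AXB/BXA, CXB and classical strains fall above and below a gap between 53.9% and 68.3%, and all BXD and BXH strains lie below it.

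**Figure D5:**
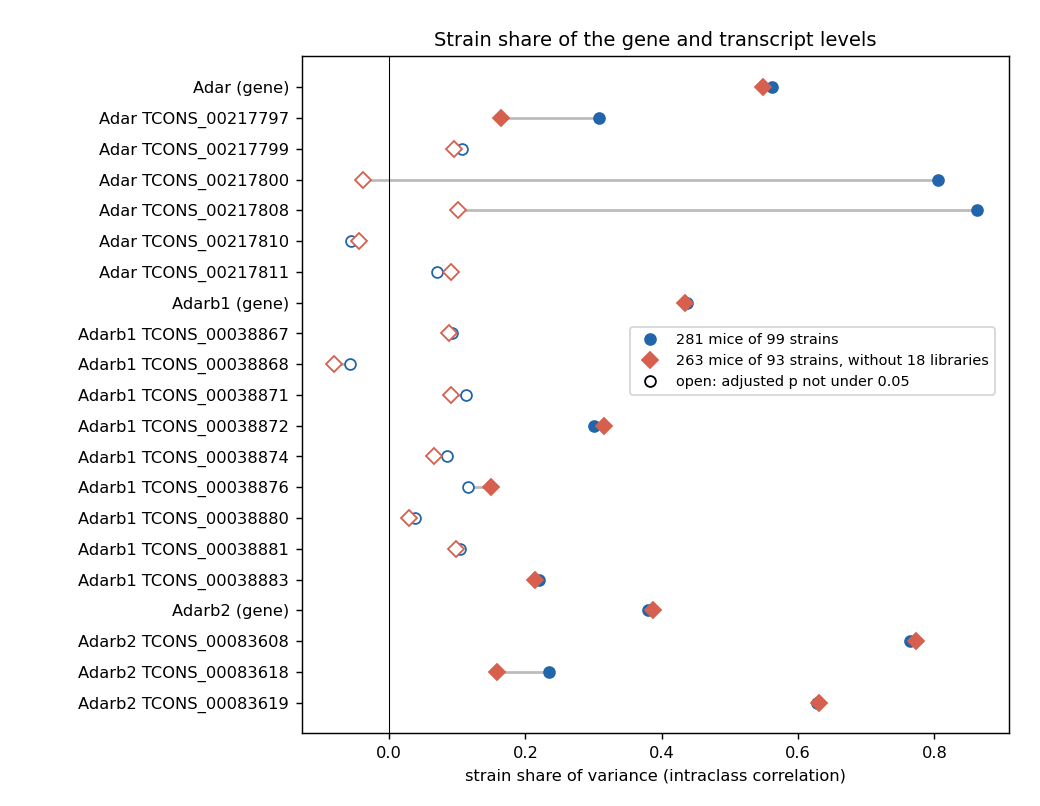
Strain share of variance (intraclass correlation of log2(FPKM + 1), horizontal axis) of the 3 genes and their 18 transcripts with all mice of 99 strains (circles) and without the 18 libraries set apart (diamonds); open symbols did not pass at an adjusted p of 0.05. The unannotated Adar isoforms TCONS_00217800 and TCONS_00217808 drop from 0.80 and 0.86 to -0.04 and 0.10, and Adarb2 TCONS_00083608 stays near 0.77.

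The genes most like each member in their pattern over 99 strain means were named by rank, with no test. For Adar these were Btrc (r = 0.79), a substrate-recognition subunit of a ubiquitin ligase, the RNA-binding protein gene Khdrbs1 (0.789), Rab14 (0.725), Mfn2 (0.719), which acts in mitochondrial fusion, and the neuronal kinesin gene Kif5a (0.688), and the least alike were Vbp1 (-0.686), Sirt3 (-0.624) and Tsr2 (-0.619). For Adarb1 they were Rora (0.937), a nuclear receptor, Ptpn3 (0.936), Amotl1 (0.936), Rgs7bp (0.935) and Plekhg1 (0.932), and at the other end Ap1s2 (-0.755), Vat1l (-0.727) and Rxrg (-0.715). For Adarb2 they were the adenosine receptor gene Adora1 (0.69), 1700020I14Rik (0.684), Fhdc1 (0.665), Rgs7bp (0.663) and Elmo1 (0.66), and at the other end A730017C20Rik (-0.583), Vat1l (-0.578) and Dnah1 (-0.576). Rgs7bp and Vat1l stood in the lists of both Adarb1 and Adarb2, which are themselves correlated.

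Among the genes next to the members, r with the member was farthest from 0 for Ube2q1, 10429 bases past the end of Adar, at -0.429, and for Pofut2, 21135 bases from Adarb1, at -0.427. Kcnn3 before Adar had 0.053, Fam207a beside Adarb1 -0.259, and Pfkp and Wdr37 beside Adarb2 0.204 and -0.117. Ube2q1 had 27.7 ± 1.69 FPKM (SD) and a strain share of 0.29, and Pofut2 13.98 ± 1.30 FPKM and 0.12.

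Other genes of the pathway were described from fixed lists, beside 8691 of 11493 genes with a single name that differed among strains with a median strain share of 0.22. Of 12 other deaminases and cofactors 4 were measured, and all 4 differed among strains (median 0.45): the tRNA deaminases Adat1 (strain share 0.57, 3.50 ± 0.852 FPKM, SD) and Adat2 (0.50, 2.18 ± 0.608 FPKM), the cytidine deaminase Apobec1 (0.31, 1.45 ± 0.684 FPKM) and Cdadc1 (0.40, 23.4 ± 1.82 FPKM). Cdadc1 had r = -0.577 with Adar. Of 22 edited neuronal and other targets 21 were measured, 17 passed and the median was 0.28. The largest strain shares were those of the coatomer subunit Copa (0.95), with strain means from 43.4 to 77.6 FPKM, and the GABA-A receptor subunit Gabra3 (0.75), with strain means from 1.26 to 47.8 FPKM. Gria2 (62.4 ± 13.4 FPKM) and the serotonin receptor Htr2c (24.8 ± 4.90 FPKM) did not pass (adjusted p = 0.77 and 0.126). With Adarb1 the median r of the 21 was -0.0172 with 10 above 0 (-0.0177 over all genes), from -0.614 for Blcap to 0.702 for Azin1, the antizyme inhibitor. With Adar the median was 0.146 with 15 above 0 (0.0227 over all genes), from -0.102 for the AMPA receptor subunit Gria4 to 0.605 for Copa. Levels of these targets say nothing of how often they were edited, which was not analysed here.

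Of 27 partners and regulators 25 were measured, 17 passed and the median strain share was 0.17, with the microRNA-processing nuclease Drosha at 0.69 and Fxr1, an RNA-binding protein of the fragile X family, at 0.56. Without the 18 libraries 16 passed, and Fxr1 stood at 0.31. Wwp2, a ubiquitin ligase known to act on ADAR2 stability, had 9.54 ± 0.823 FPKM (limma's adjusted p = 0.00017, and 0.0293 without the 18 libraries). All 4 measured sensors of double-stranded RNA among 12 passed (median 0.32), Tlr3 with strain means from 0.626 to 4.02 FPKM and Mavs with r = 0.262 with Adar. All 8 measured interferon-stimulated genes of 20 passed (median 0.44), led by Ifit3 (0.78) with strain means from 0.341 to 20.6 FPKM. For none of the 8 was r with Adar above 0, and their median r was -0.0478, against 0.0227 over all genes. List genes that are not named with a value here shared a locus with another gene or had no row under their own name, or are included in the counts only.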

How the data were processed

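Whole-hypothalamus RNA of 282 male mice had been sequenced. Per the labels and the study's methods, the authors used STAR 2.3.1 for alignment to mm10 and Cufflinks 2.2.0 for an assembly of each strain, combined these with GENCODE M2 annotation, and computed the level in each mouse with Cuffnorm 2.2.1 (FastQC is also named). The deposited values are FPKM, scaled between mice by the authors, and their filter kept features that exceeded 0 in 100 or more mice and 1 in 50 or more, which was checked on the values. Exon coordinates come from the deposited assembly. FPKM hold no counts per feature, so values carry an SD over mice and no interval for counting error. Mapped reads per mouse, listed by the study, were used only as a covariate and are not printed. No column was left unmapped, and no mice held identical values.

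FPKM were analysed as log2(FPKM + 1), so fold changes of low features are understated. Differences among 99 strains were tested with limma 3.58.1 (R 4.3.3), with trend for levels and without it for shares and PSI, and p-values were adjusted by Benjamini-Hochberg over all features of a kind at a threshold of 0.05. Within-set and parental contrasts came from the same fit. Shares and PSI needed a value in at least 200 mice. Strain share was computed as the intraclass correlation (1-way). Correlations were tested with 2-sided permutation tests of 100000 resamples, or exact enumeration within BXH and CXB (Python 3.11.15, numpy 2.4.6, pandas 2.3.3, scipy 1.17.1; figures with matplotlib 3.10.9). Replicates were numbered in accession order. The pipeline was tested on simulated data.

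The genes named are the members, the 5 genes with the highest and 3 with the lowest r with each, their neighbours, and genes of the lists with the largest strain shares or a needed role. Members and lists were chosen with earlier results of these data known. Chosen after seeing the data were the removal of 18 libraries, the thalamus covariate, the relation of Adarb1 to PSI and the shortened motif. The alternatives were the pseudocount, a filter, quantile normalization, Kruskal-Wallis tests, mapped reads as a covariate, known transcripts only, and leaving out replicates or mouse OB-547. RNA editing itself and genotypes were not analysed here.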

Additional observations from a re-analysis of the deposited data

How the results depend on the processing

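Of the values for single members under the alternatives, 694 kept their direction and side of the threshold, 31 were no longer past it and 14 newly passed it. Without the 18 libraries the counts of called features were 13658 of 51024 transcripts, 8469 transcript shares, 4984 start site shares and 2091 splicing events, against 23923, 17849, 8472 and 4119 with all mice. With known transcripts only, 1443 of 7045 splicing events were called, a smaller table. Without mouse OB-547, 4175 genes were called within CXB, against 2547. With the spread of the 2 strains compared only, 710 genes were called for C3H/HeJ and 530 for BALB/cJ, against 1069 and 959. Leaving out 1 replicate number, and with it up to 1 mouse of each strain, gave 6449 to 8664 genes (10633 with all), 12668 to 17047 transcripts, 8622 to 11694 start sites (16399 with all), 8983 to 12253 transcript shares, 4012 to 5616 start site shares and 2066 to 2711 splicing events, and 578 to 646 genes for DBA/2J (965 with all), 578 to 687 for A/J (1120), 571 to 695 for C3H/HeJ and 494 to 701 for BALB/cJ.

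The correlation of Adar and Adarb1 (-0.166) turned positive over deviations within strains (0.212), within AXB/BXA (0.0321), CXB (0.0938) and the classical strains (0.304), and passed the threshold within BXD (-0.394) and under quantile normalization (-0.198). That of Adar and Adarb2 (-0.234) was 0.0991 within the classical strains and did not pass over deviations (-0.0547), within AXB/BXA (-0.264), BXH (-0.478) or CXB (-0.173), without the 18 libraries (-0.218), without replicate 2 (-0.105) or given the thalamus markers (-0.164), and leaving out replicates gave -0.314 to -0.105. That of Adarb1 and Adarb2 did not pass within BXH (0.851) or CXB (0.775), and that of Adarb1 and its 47-nt PSI not within CXB (0.558), with few strains in each. The interferon score passed with TSS56070 over deviations (r = 0.175), where p-values tend to be too small. The cause of these changes was not tested, and some of the alternatives held fewer features or mice. No paired analysis was possible because the labels give no replicate numbers and strains share no animals. FPKM give no counts per isoform, so low isoforms listed at 0 cannot be told from isoforms missed.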
